A study of Arabidopsis thaliana and Arabidopsis lyrata subsp. lyrata with 12 samples.

Results

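The annotation of *A. lyrata* that the authors deposited marks some gene loci as containing a transposable element (TE). Taking every feature of type gene with this note gave 4200 loci of the 32793 in the gene table, and the 28593 loci without the note served as the comparison. The loci are called TE-noted loci here. The note gives neither the family of the TE nor its position, so a TE-noted locus can be a TE whose open reading frame was modelled as a gene, or a host gene that carries TE sequence. RNA from rosette leaves of *A. lyrata* subsp. *lyrata* MN47, taken when plants had about 5 leaves, was sequenced after heat stress (HS; 6 h at 37 °C), after 48 h of recovery at 21 °C following the same HS, and in control plants without HS (21 °C by day and a cooler night), with 2 libraries per condition. One set of controls, sampled together with the HS plants, was set against both conditions. Recovered plants were therefore 48 h older than the controls, and the effects of HS and of this growth cannot be told apart. Nothing in the labels says whether the 2 libraries of a condition came from separate plantings, so p-values measure only the spread between these libraries.

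TEs are DNA sequences that can multiply within a genome. Retrotransposons do so through an RNA copy, and among them the LTR retrotransposons of the *Copia* and *Gypsy* superfamilies are flanked by long terminal repeats (LTRs) that hold their promoter, while LINE elements have no LTR. DNA transposons move as DNA. Plants keep most TEs silent by DNA methylation and repressive histone marks, and *ONSEN* (*COPIA78*) is the best known plant TE that is nevertheless transcribed during heat, through heat shock factors that bind its LTR. Heat shock factors recognise GAA cores and their reverse complement TTC in alternating orientation.

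The LTRs of *A. lyrata ONSEN* copies hold such cores. Stretches of 4 of these LTRs, taken from the supplementary sequences of the study, are printed. AlONSEN6 and AlONSEN14 show a pair of motifs, and their stretches differ only in the spacer between the motifs (att and atc). AlONSEN1 and AlONSEN8 show a single motif. Each stretch runs 30 bases, 5′ to 3′, from 5 bases before the first motif (the first pair where there is one), and capitals mark the TTC and GAA cores of each motif TTCNNGAA, which reads the same on both strands.

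AlONSEN6: aaatgTTCtaGAAattTTCtaGAAtcatct

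AlONSEN14: aaatgTTCtaGAAatcTTCtaGAAtcatct

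AlONSEN1: aaaagTTCtaGAAattctctagaatgatct

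AlONSEN8: aaattTTCtaGAAtcatcttccacctcctt

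The stretch of AlONSEN6 starts at base 127 of its LTR, and the same 30 bases were found in 5 copies. All 16 LTR sequences searched held the motif TTCNNGAA, and 7 held the pair TTCNNGAANNNTTCNNGAA. In non-overlapping windows of 442 bp, the median LTR length, over the 5 nuclear chromosomes of *A. thaliana* (RefSeq, TAIR10.1), 17.3% held the single motif and 0.0178% the pair. The 16 sequences are related copies of the same family, and the windows are from another species and were not matched for base composition. The shares were therefore not compared by a test. A match is a description of letters and no measured binding site, and the sources used here do not link these LTR copies to gene loci of the annotation.

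TE-noted loci differed in structure from the rest of the table. Their median length was 2937 bp, against 1955 bp for loci without the note, and their median summed exon length was 1718.5 bp against 1324 bp. An *A. thaliana* orthologue was linked to 1421 of them (33.8%), against 72.5% of the loci without the note. They made up between 10.9 and 15.4% of the loci on scaffolds 1 to 8 of assembly v1.0 and 28.6% (57 of 199) on scaffold 9. TE-noted loci also lay next to each other: 46.4% had another TE-noted locus as a direct neighbour, against 19% of the loci without the note. Another annotated gene overlapped 3.12% of TE-noted loci, and since the libraries kept no strand, reads of overlapping genes cannot be told apart there.

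The 6 libraries held between 8246880 and 26046839 reads counted to genes, and HS replicate 1 was the shallowest. TE-noted loci took 4.34 and 4.57% of these reads in the HS libraries, 4.93 and 7.13% after recovery, and 4.79 and 4.79% in the control libraries. The HS libraries thus lay below the control libraries, and recovery replicate 2 stood apart from the other 5. Without 14 loci that were chosen after their values had been seen and are described below with their neighbourhood on scaffold 3, the share was 3.67 and 3.68% in HS libraries, 4.51 and 4.45% in recovery libraries, against 4.41 and 4.46% in control. Of 5 listed leaf markers, 4 were matched through the orthologue links (RCA, LHCB2.1, CAB3 and CA1). They held between 1.45 and 1.58% of reads after HS, 3.15 and 3.23% after recovery, against 3.20 and 3.41% in the control. Of 10 listed markers of other tissues, 8 were matched (flowers, seeds and roots), and 7 of them did not pass the filter on low counts. The other was SCR, listed as a root marker. It had 133 and 378 reads after HS, 212 and 421 after recovery, against 218 and 312 in control. In such bulk samples, fewer cells of a type and less RNA per cell cannot be told apart.

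Control replicate 2 is shown apart, because it had reads on many loci that were silent elsewhere. At least 1 read fell on 86.8% of the TE-noted loci in this library, against 52.7% in control replicate 1, 50.0 and 57.0% in the HS libraries and 54.1 and 58.1% after recovery. Of loci without the note, 86.6% had a read in control replicate 2 and between 73.6 and 78.2% in the other 5 libraries. In control replicate 2 the TE-noted loci were thus covered as widely as other loci, which was the case in no other library. Depth differed between libraries, and at the depth of HS replicate 1 the share of TE-noted loci with a read, computed for reads drawn at random, was 80.3% in control replicate 2 and between 50.0 and 53.0% in the other libraries.

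**Figure D1:**
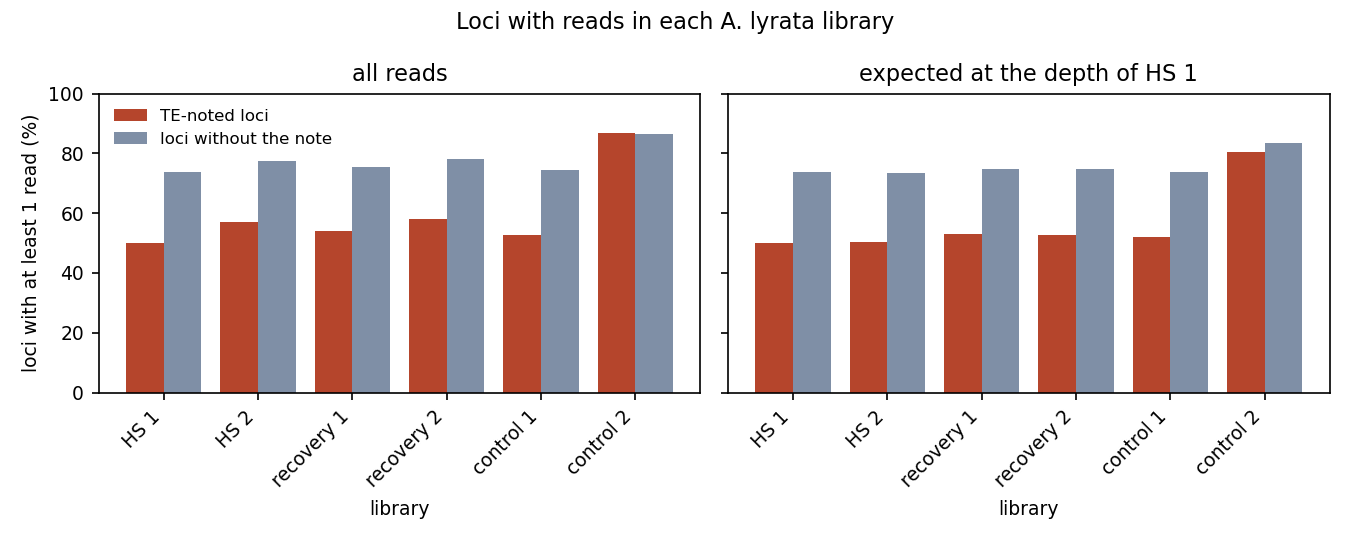
Percent of TE-noted loci (red) and of loci without the note (blue-grey) with at least 1 read, by *A. lyrata* library, for all reads (left) and computed for the depth of HS replicate 1 (right). The red bar reaches 86.8% in control replicate 2 and stays between 50.0 and 58.1% in the other 5 libraries.

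With at least 5 reads in 1 library and none in the other 5, 171 TE-noted loci (4.07%) and 223 loci without the note (0.78%) were found in control replicate 2, and 0 TE-noted loci in each of the other libraries. The count in control replicate 2 was 1015 with at least 1 read, 40 with at least 10 reads, and 86 with at least 5 reads when computed for the depth of HS replicate 1. The most reads of this kind fell on AL6G35180 (34 reads, scaffold 6, 10617983 to 10619627), AL7G40850 (30 reads, orthologue AT4G14368, 16 exons), AL7G42160 (27 reads), AL9U10580 (24 reads) and AL6G36970 (23 reads), each with 0 reads in the other 5 libraries. These reads were spread thinly, and no TE-noted locus of this kind had more than 34.

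Among loci with annotated exons and no read in the other 5 libraries, 69.4% of 1463 TE-noted loci and 49.0% of 4256 loci without the note had a read in control replicate 2. Per kb of exon the density was alike, with 1.00 reads on TE-noted loci and 1.07 on loci without the note. From exons under 1000 bp to exons of 4000 bp or more, the share of TE-noted loci with a read was 35.8, 68.1, 93.5 and 96.9%, while the density stayed between 0.801 and 1.12 reads per kb. By the same measure the density on TE-noted loci was 0.0179 and 0.0694 reads per kb in the HS libraries, 0.012 and 0.0317 after recovery and 0.00405 in control replicate 1. What gave control replicate 2 these reads was not tested, and results below that turn on this library are given with and without it.

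**Figure D2:**
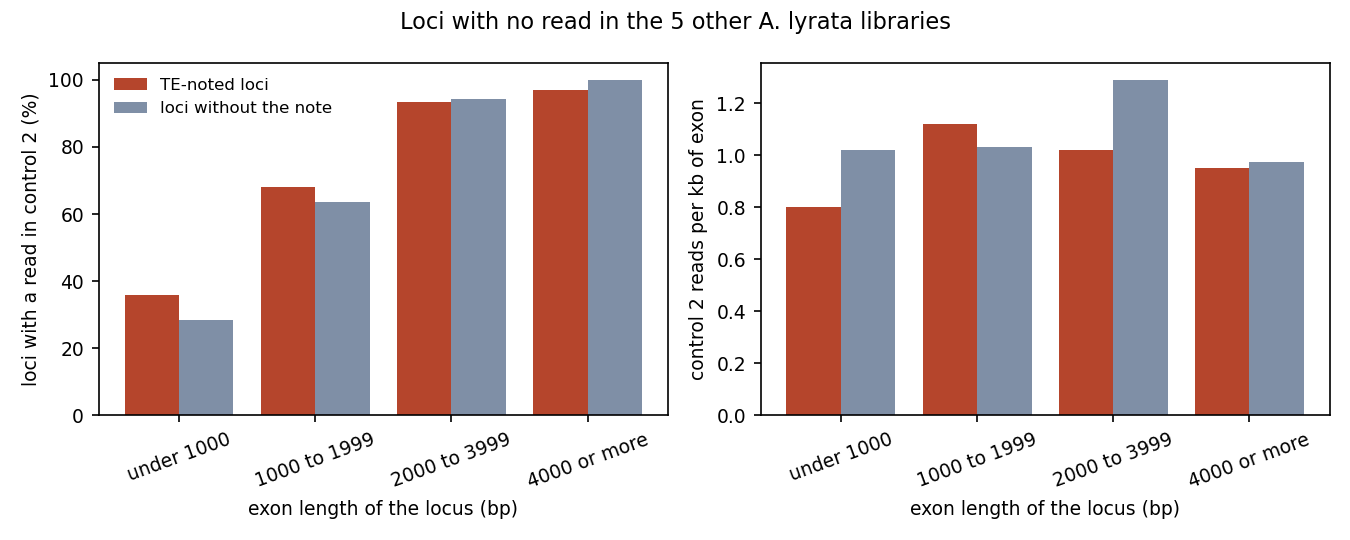
Loci with annotated exons and no read in the other 5 *A. lyrata* libraries, binned by exon length: percent with a read in control replicate 2 (left) and reads per kb of exon (right), for TE-noted loci (red) and loci without the note (blue-grey). The share of TE-noted loci with a read is 35.8% in the shortest bin and 96.9% in the longest, while the density stays between 0.801 and 1.12 reads per kb.

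Of the 4200 TE-noted loci, 1699 (40.5%) had enough reads to be tested, against 66.7% of loci without the note, and 448 had no read in any library. The 2501 that were not tested included 2053 with some reads. Those tested were weakly covered: 37.9% of them fell in the lowest quartile of all tested loci by mean CPM (read counts scaled to a common library size with TMM factors) and 16.7% in the highest quartile. The test was edgeR's quasi-likelihood test over all 20779 loci that passed the filter, with an adjusted p under 0.05 (Benjamini-Hochberg) as the threshold. Single-locus exact tests were not used, since with 2 libraries against 2 the smallest two-sided exact permutation p is that of 2 in 6 arrangements.

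After HS, 580 of the 1699 TE-noted loci tested were higher than in control (34.1%) and 684 were lower (40.3%). Over all 20779 loci tested these shares were 37.9 and 38.7%, and the difference from the TE-noted loci was not tested. From the lowest to the highest quartile by mean CPM, 25.9, 35.9, 43.8 and 38.5% of TE-noted loci were higher. For loci without the note these shares were 29.4, 37.4, 43.9 and 41.6%. In the same order 39.4, 38.7, 38.8 and 46.3% of TE-noted loci were lower, against 36.2, 36.6, 36.6 and 44.4% of loci without the note. The lowest quartile held 37.9% of the TE-noted loci. The median log2 fold change of TE-noted loci was -0.11, against -0.01 for the 19080 loci without the note. Among the 903 with an *A. thaliana* orthologue 32.4% were higher and 44.3% lower, with a median log2 fold change of -0.19, and among the 796 without one 36.1% were higher and 35.7% lower, with a median of -0.01. Of loci without the note, 38.8% were higher and 39.2% lower with an orthologue, and 35.2 and 35.2% without one (medians -0.01 and -0.02). Changes of at least 5 on the log2 scale were called for 23 TE-noted loci upward (1.35%) and 20 downward (1.18%). Of loci without the note, 1.17 and 0.681% were called so. With an orthologue, the upward share was 0.775% of TE-noted loci and 0.979% of loci without the note. Without an orthologue these shares were 2.01 and 2.2%. The downward shares were 1.11 and 0.599% with an orthologue, and 1.26 and 1.12% without one. Without control replicate 2 the median was -0.05 for TE-noted loci and 0 for loci without the note.

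**Figure D3:**
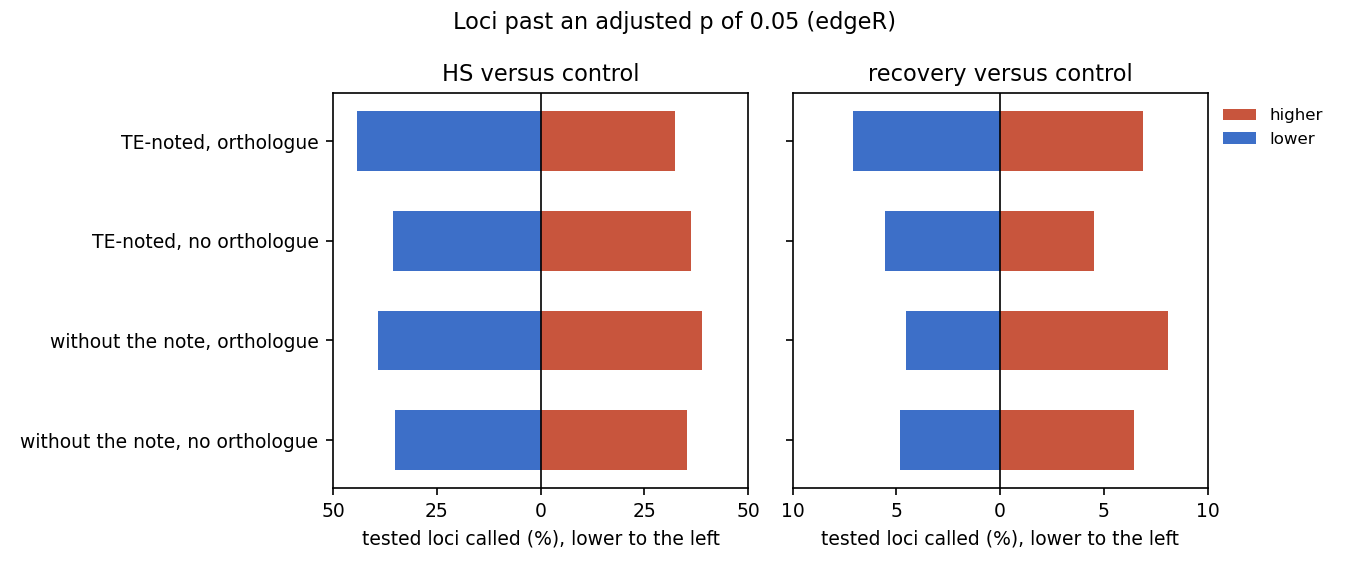
Percent of tested loci called higher (red, right of 0) and lower (blue, left of 0) by edgeR at an adjusted p under 0.05, for HS versus control (left) and recovery versus control (right), by TE note and *A. thaliana* orthologue. After HS, TE-noted loci with an orthologue have the widest blue bar, 44.3%.

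The loci ranked steepest after HS had next to no reads in control plants, which a ranking by fold change favours. Loci with 0 to 2 reads in each library outside HS passed the filter on low counts only through their HS libraries. AL1G58620 (scaffold 1, 27785917 to 27787017), which overlaps GP2N and LINE1_10 elements of the study's list of responsive TEs, had 349 and 1217 reads after HS, 1 and 1 after recovery, against 0 and 0 in control, at least 403-fold higher after HS than in control (limit of 3 reads over the control group). AL5G17260 (scaffold 5, 4327289 to 4328835), which overlaps *COPIA78*, LINE1A, Sadhu8-1 and other elements, had 361 and 993 reads after HS, 0 and 2 after recovery, against 0 and 0 in control, at least 348-fold higher. AL3G43370, at a LINE1A element, had 50 and 150 reads after HS against 0 and 0 in control, which is at least 51.4-fold higher. After recovery 0 to 2 reads were left in each library at these 3 loci.

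AL1G54840 was the 1 TE-noted locus tested without any read in control or recovery, and it had 49 and 149 reads with HS, which is at least 50.9-fold above control. Some of the steep increases lay in loci with a named orthologue. AL2G23090, linked to WRKY64 of the WRKY transcription factor family, had 121 and 361 reads after HS, 1 and 1 after recovery, against 1 and 1 in control, a read ratio of 186 of HS to control (95% counting interval 51.2 to 1540). AL6G16790, linked to the cytochrome P450 gene CYP93D1, had 123 and 309 reads after HS, 1 and 2 after recovery, against 0 and 2 in control, a read ratio of 167 (45.9 to 1380). Intervals and limits of this kind cover counting error only.

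The heat shock factor HSFA2 is itself linked to a TE-noted locus, AL4G17760, which was named after its values had been seen. A Sadhu6-1 element of the study's list of responsive TEs covers 82 bp of it (3.71%), and it overlaps 1 other annotated gene. The locus had 318 ± 9.66 CPM after HS, 2.31 ± 0.358 CPM after recovery and 5.57 ± 0.0427 CPM in control (SD, n = 2 each).

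A total of 9 TE-noted loci overlap *COPIA78* (*ONSEN*), *COPIA37* or *TERESTRA* elements in the study's list of TEs that responded in these same libraries. Membership in that list depended on the response, so their values are a description. *ONSEN* loci were nearly silent outside HS. AL3G40680 (scaffold 3, 13033908 to 13038152), a single-exon model that lies wholly within a *COPIA78* element, had 407 and 1202 reads after HS, 1 and 5 after recovery, against 1 and 1 in control, a read ratio of 621 of HS to control (172 to 5130). AL8G27760, also wholly within *COPIA78*, had 430 and 1286 reads after HS, 1 and 0 after recovery, against 4 and 10 in control.

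Both single-exon *COPIA78* models, AL3G40680 and AL8G27760, had at most 10 reads in any library outside HS. AL4G29160 (4 exons, wholly within *COPIA78*) had 150 and 476 reads after HS, 0 and 1 after recovery, against 1 and 3 in control. In AL2G12190 the element covered 26.3% of a model with 6 exons, and the locus had 530 and 1577 reads after HS, 1 and 0 after recovery, against 1 and 4 in control. After HS these 4 loci ranged from 20.2 ± 0.679 CPM in AL4G29160 to 68.9 ± 0.815 CPM in AL2G12190. *ONSEN* copies are alike in sequence. How multiply mapping reads were treated in the gene counts is not given in the sources used here, so the division of reads among these loci is uncertain.

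AL1G54920 (scaffold 1, 25445653 to 25449988), of which a *TERESTRA* element covers 59.4%, followed the *ONSEN* loci. It had 284 and 874 reads after HS, 0 and 0 after recovery, against 0 and 2 in control, a read ratio of 447 of HS to control (123 to 3690).

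The 3 *COPIA37* loci did not share a pattern. AL7G28250 (scaffold 7, 7640478 to 7642597) had 87 and 265 reads after HS, 64 and 116 after recovery, against 1 and 1 in control. Of the 9 loci it was the only one called above control after recovery, at 5.64 ± 0.474 CPM against 0.0872 ± 0.0218 CPM in control (read ratio 65.4, 17.8 to 544, adjusted p = 4.24e-08 from edgeR). The 9 loci come from a list drawn from these same libraries, so this p is no independent support. AL8G41930, linked to AT4G03940, was read in all conditions, with 122 and 295 reads after HS, 14 and 25 after recovery, against 12 and 20 in control.

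AL1G63360 (scaffold 1, 31116642 to 31118499), of which *COPIA37* covers 84.4%, differed from both. It had 24 and 101 reads after HS, 1 and 1 after recovery, against 31 and 44 in control. In CPM it was at 3.76 ± 0.87 after HS, 0.0695 ± 0.0337 after recovery and 3.17 ± 0.015 in control, and while HS against control did not pass the test (adjusted p = 0.211), recovery was lower than control (log2 fold change -5.50 ± 0.52 SE, edgeR adjusted p = 1.43e-06) in every alternative fit.

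**Figure D4:**
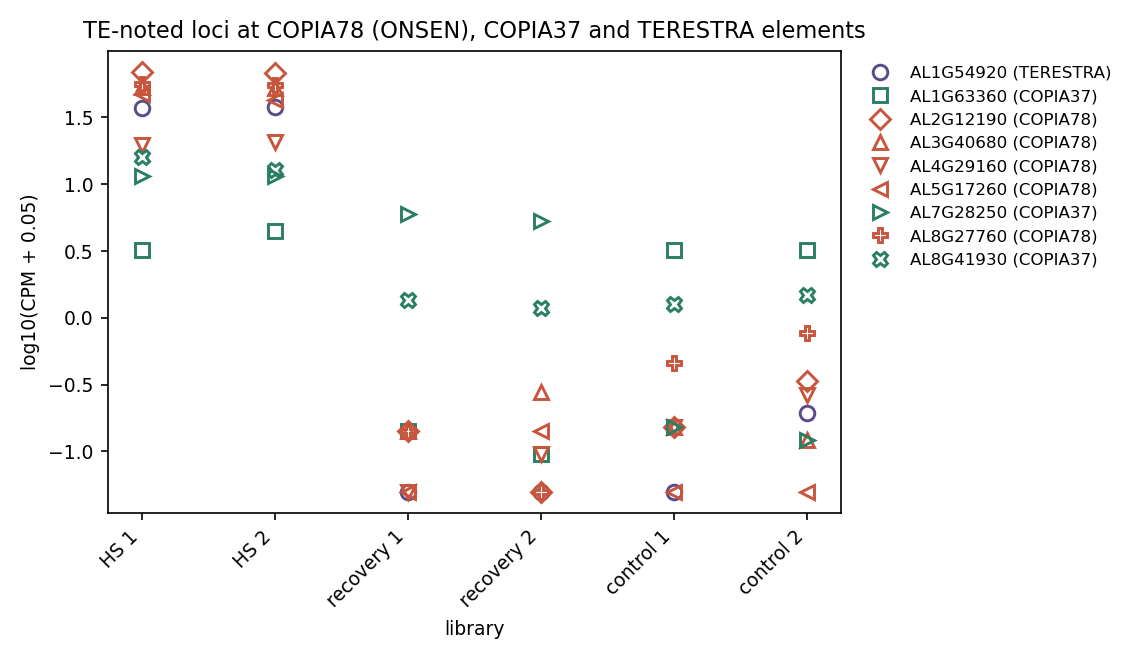
Level of the 9 TE-noted loci at *COPIA78* (red), *COPIA37* (green) and *TERESTRA* (purple) elements in each library, as log10(CPM + 0.05). Both HS libraries hold the highest points, the *COPIA37* locus AL7G28250 keeps 5.64 ± 0.474 CPM after recovery, and AL1G63360 drops to 0.0695 ± 0.0337 CPM after recovery.

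In all, 113 TE-noted loci overlap a TE of the study's list, and 97 of them were tested. After HS 54 were higher and 38 lower than control, and after recovery 5 were higher and 10 lower, which again is a description, since the list was drawn from the same libraries. Over all loci tested, 37.9% were higher and 38.7% lower after HS, and 7.65% and 4.73% after recovery. By superfamily, 13 of 24 tested loci at *Copia* elements were higher after HS and 8 lower, 11 of 18 at LINE/L1 elements were higher and 6 lower, and 5 of 10 at *Gypsy* elements were higher and 5 lower. All 6 loci at PIF-Harbinger DNA transposons were higher. At Sadhu elements, a plant family of retroelements without LTR, 6 of 13 were higher and 7 lower. Loci that overlap several superfamilies are left out of these counts, and of the 5 tested 4 were higher and 1 lower.

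The steepest HS decreases included a cluster at *Gypsy* sequence. AL6G41360, AL6G41370 and AL6G41380 are consecutive on scaffold 6 (18590437 to 18594958) and overlap Athila6A elements. AL6G41380 had 0 and 0 reads after HS, 17 and 72 after recovery, against 41 and 60 in control, at least 43.6-fold lower after HS than in control. AL6G41370 had 0 and 0 reads after HS, 38 and 77 after recovery, against 33 and 55 in control, at least 38-fold lower. AL6G41360 had 0 and 1 reads after HS, 22 and 33 after recovery, against 24 and 31 in control.

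At all 3 Athila6A loci the reads were back after recovery, and none of the 3 differed from control there by the test (adjusted p = 0.369 for AL6G41360, 0.889 for AL6G41370 and 0.128 for AL6G41380, from edgeR). The next locus, AL6G41350 (scaffold 6, 18572803 to 18578494), overlaps no listed TE and had 1 and 11 reads after HS, 6 and 16 after recovery, against 28 and 64 in control. It was lower than control both after HS (log2 fold change -3.28 ± 0.41 SE, edgeR adjusted p = 9.87e-07) and after recovery (-2.50 ± 0.36 SE, edgeR adjusted p = 0.000152).

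Loci outside the listed TEs were also among the steepest decreases. AL1G12030, linked to CSLD5, a cellulose synthase-like gene that acts in building the cell plate of dividing cells, had 0.829 ± 0.497 CPM after HS, 31.7 ± 1.02 CPM after recovery and 34.0 ± 5.27 CPM in control (log2 fold change of HS to control -5.67 ± 0.22 SE, edgeR adjusted p = 2.43e-13). AL6G48920, linked to AT4G02800, had 0 and 2 reads after HS, 113 and 235 after recovery, against 112 and 156 in control. AL8G12470, without an orthologue, had 2 and 1 reads after HS, 68 and 134 after recovery, against 48 and 91 in control. Both recovery libraries lay far above the HS libraries at these 3 loci, while the lack of overlap with control was a condition for naming them.

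One abundant locus at *Copia* sequence, named after its values had been seen, fell with HS. AL5G16780 (scaffold 5, 3992128 to 3997542) overlaps Copia20 and Copia93 elements over 66.4% of its length and had 79.6 ± 0.0135 CPM after HS, 677 ± 4.57 CPM after recovery and 787 ± 16.4 CPM in control (log2 fold change of HS to control -3.30 ± 0.10 SE, edgeR adjusted p = 9.89e-15).

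The longest unbroken row of TE-noted loci held 14 neighbours over 86617 bp of scaffold 7, and was looked at after this row had been found. All 7 of its loci with an orthologue are linked to genes between AT4G23130 and AT4G23220, which encode cysteine-rich receptor-like kinases (CRK5, CRK7, CRK8, CRK10, CRK11, CRK13 and CRK14). Of the 9 loci tested, 7 were lower after HS than in control (edgeR; 38.7% of all loci tested were lower), and after recovery the smallest adjusted p among the 9 was 0.15, at CRK10. AL7G29580 was the most abundant of the row, with 32.5 ± 2.36 CPM after HS, 243 ± 2.79 CPM after recovery and 221 ± 26.1 CPM in control (log2 fold change of HS to control -2.75 ± 0.10 SE, edgeR adjusted p = 6.88e-14).

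Components of TE silencing were examined beside these loci, from a list of 24 genes, all of which had an *A. lyrata* orthologue that was tested. After HS 17 were lower and 3 higher than control, with a median log2 fold change of -0.76, and after recovery 2 were lower, with a median of -0.09. Over all loci tested, 38.7% were lower and 37.9% higher after HS, and 4.73% lower after recovery. Of the 24, 3 are TE-noted loci themselves. AL8G43370, linked to DDM1, the chromatin remodeller that keeps TEs methylated, had 4.27 ± 0.641 CPM after HS, 10.5 ± 0.402 CPM after recovery and 11.0 ± 4.12 CPM in control (log2 fold change of HS to control -1.47 ± 0.22 SE, edgeR adjusted p = 1.03e-05).

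AL5G21330, linked to DCL3, which cuts the small RNAs that direct DNA methylation, was at 17.5 ± 0.413 CPM after HS, 22.7 ± 0.485 CPM after recovery and 25.7 ± 0.627 CPM in control, lower after HS by the test (log2 fold change -0.56 ± 0.10 SE, edgeR adjusted p = 8.96e-05). AL7G14530, linked to MORC1, an ATPase of heterochromatin condensation, was at 6.59 ± 0.132 CPM after HS, 8.62 ± 0.224 CPM after recovery and 7.89 ± 0.717 CPM in control, and did not pass the test after HS (adjusted p = 0.123), although it did when scaled to library totals (log2 fold change -0.51, adjusted p = 0.00904).

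After recovery, 98 of the 1699 TE-noted loci tested were higher than control (5.77%) and 108 were lower (6.36%). Over all loci tested the shares were 7.65 and 4.73%, and of loci without the note 1491 were higher and 874 lower. The median log2 fold change was -0.06 for TE-noted loci and 0.00 for the others. These counts depended on single libraries. Without the 14 loci with high reads in recovery replicate 2, described below, 84 TE-noted loci were higher and 108 lower. That alternative was added after seeing the data. Without control replicate 2, 37 TE-noted loci were higher and 36 lower (35 and 36 of them also called with all libraries), with a median of -0.01, beside 620 and 323 loci without the note. Without control replicate 1 the median was -0.1 for TE-noted loci and 0.01 for loci without the note. Without recovery replicate 1 these medians were -0.09 and 0, and without recovery replicate 2 they were -0.06 and 0. DESeq2, with all libraries, called 33 of 3752 TE-noted loci higher and 23 lower, beside 670 and 262 of 25640 loci without the note.

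Among named loci outside the listed TEs, the largest recovery increase was at AL4G45010 (scaffold 4, 22993191 to 22996828), linked to POP1, a protein of the RNases that process tRNA and rRNA precursors. It had 452 and 1180 reads after HS, 1432 and 2719 after recovery, against 51 and 71 in control, or 129 ± 6.62 CPM after recovery against 5.16 ± 0.095 CPM in control (log2 fold change 4.64 ± 0.12 SE, edgeR adjusted p = 3.51e-14). AL5G26370, at a Sadhu6-1 element and linked to AT1G52618, had 468 and 1565 reads after HS, 81 and 144 after recovery, against 14 and 14 in control (log2 fold change of recovery to control 2.54 ± 0.23 SE, edgeR adjusted p = 8.52e-07). The POP1 locus was highest after recovery and AL5G26370 after HS.

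Other loci were higher after recovery than after HS. AL6G46800, linked to the cysteine-rich receptor-like kinase CRK39, had 8 and 16 reads after HS, 58 and 102 after recovery, against 5 and 12 in control (log2 fold change of recovery to control 2.78 ± 0.31 SE, edgeR adjusted p = 1.06e-05). AL7G32540, linked to AT4G20860 of the berberine bridge enzyme-like family, had 3.63 ± 0.132 CPM after HS, 16.3 ± 0.382 CPM after recovery and 2.45 ± 0.0149 CPM in control (2.74 ± 0.17 SE, edgeR adjusted p = 6.99e-09). After HS, AL6G46800 did not pass the test against control (edgeR adjusted p = 0.811).

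Among the recovery decreases, some depended on control replicate 2. AL2G29490 had 6 and 11 reads after recovery against 6 and 91 in control, and AL3G20690, linked to the ubiquitin gene UBQ8, had 5 and 15 after recovery against 7 and 58 in control. Without control replicate 2 the log2 fold change of AL3G20690 was -0.23 (adjusted p = 0.894), and AL2G29490 did not pass the filter on low counts. Neither locus was called without recovery replicate 1 (adjusted p = 0.0871 for AL3G20690 and 0.0515 for AL2G29490) or without recovery replicate 2 (adjusted p = 0.127 for AL3G20690 and 0.147 for AL2G29490). AL8G27760, the *ONSEN* locus with 1 and 0 reads after recovery, was called lower than control (adjusted p = 0.00585), but not without control replicate 2 (adjusted p = 0.114), without recovery replicate 2 (adjusted p = 0.176) or by DESeq2 (adjusted p = 0.0522). AL4G10470, at a LINE1_6 element, had 94 and 265 reads after HS, 8 and 11 after recovery, against 19 and 25 in control (log2 fold change of recovery to control -1.65 ± 0.35 SE, edgeR adjusted p = 0.00429), and was not called without recovery replicate 2 (-1.31, adjusted p = 0.121).

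A row of 12 neighbouring TE-noted loci, AL3G52370 to AL3G52480 (scaffold 3, 24309214 to 24439261), moved together, and this row was singled out after its values had been seen. Together they held 47013 and 191464 reads after HS (0.57 and 0.735% of the library), 35132 and 487220 after recovery (0.349 and 2.27%), against 26420 and 31469 in control (0.285 and 0.24%). Recovery replicate 2 stood far above all other libraries, and recovery replicate 1 near the control. The reads of the row were 10.6 to 11.9 times those of its member AL3G52460 in every library. Some members had similar read numbers at different exon lengths. In recovery replicate 2, AL3G52370, AL3G52410 and AL3G52460 had 41398, 42527 and 43832 reads at 3450, 2060 and 2240 bp of exon. Over the row the range was 16432 to 76228. How multiply mapping reads were treated in the gene counts is not given in the sources used here. Whether the 12 loci hold separate reads was not tested.

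By the test all 12 were higher after recovery than in control, with log2 fold changes of 2.20 to 2.68 and adjusted p between 0.00247 and 0.00674. The calls were lost without recovery replicate 2 (log2 fold changes of 0.19 to 0.57, adjusted p between 0.0821 and 0.637), without control replicate 2 (2.02 to 2.62, adjusted p between 0.0705 and 0.13) and with DESeq2 (adjusted p between 0.105 and 0.316), and 11 of the 12 were called without control replicate 1. AL3G52430, the longest of the row with 17 exons, had 5495 and 76228 reads after recovery against 4382 and 5063 in control. After HS the 12 loci were higher than control with log2 fold changes of 1.12 to 2.02 (all 12 called by edgeR, 4 without HS replicate 2 and 3 without control replicate 2, and adjusted p between 0.0872 and 0.357 with DESeq2).

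A pair of loci on scaffold 9 that are not neighbours of the row, AL9U11700 and AL9U11780, followed the same libraries. AL9U11700 had 6571 and 32840 reads after HS, 5951 and 75620 after recovery, against 7169 and 8849 in control. AL9U11780 had 3061 and 17481 reads after HS, 3374 and 41921 after recovery, against 3767 and 5220 in control. With these 2 loci the row makes up the 14 loci whose removal brought the share of reads on TE-noted loci in recovery replicate 2 to 4.45%.

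Between the recovery libraries, the CPM of the 12 loci was 6.69 to 7.56 times as high in replicate 2 as in replicate 1. A ratio above 3 was found in 17 of the 713 TE-noted loci with a mean of at least 10 CPM over the recovery libraries, and in 9 of 10852 loci without the note. Beside the 14 loci these were AL2G20070, AL2G20500 and AL7G51000. Of these, AL7G51000, of which a Sadhu3-2 element covers 12.5%, had 320 and 2762 reads after recovery against 179 and 252 in control. The source of the reads in recovery replicate 2 was not tested.

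**Figure D5:**
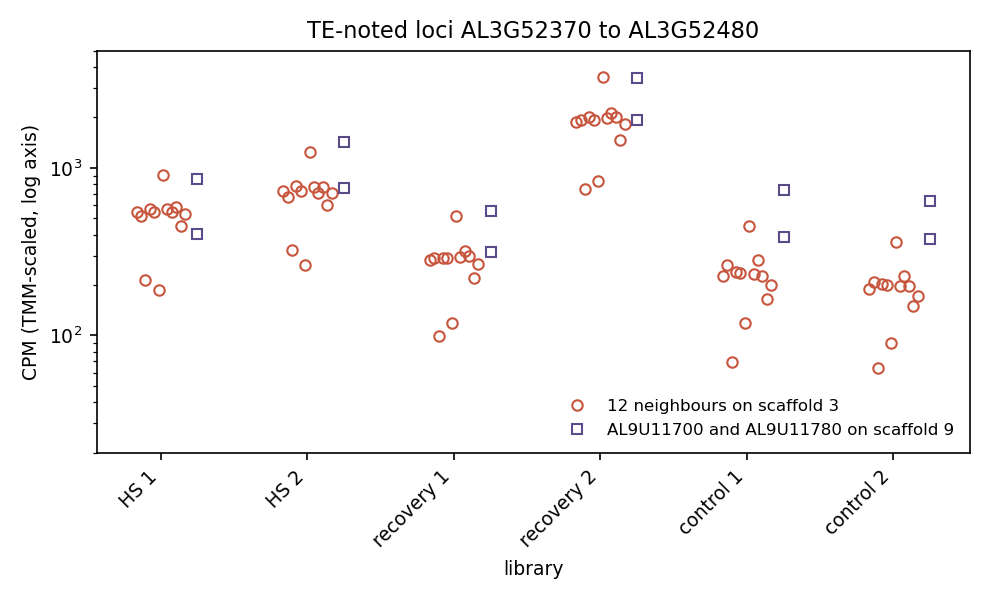
CPM (log axis) of the 12 neighbouring TE-noted loci AL3G52370 to AL3G52480 (red circles) and of AL9U11700 and AL9U11780 (purple squares) in each *A. lyrata* library. All 14 loci are highest in recovery replicate 2, where the 12 neighbours lie 6.69 to 7.56 times above recovery replicate 1.

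From HS to recovery, 674 TE-noted loci were higher after recovery than after HS (39.7%) and 601 were lower (35.4%), beside 39.1 and 38.3% over all loci tested, with a median log2 difference of 0.12 for TE-noted loci and 0.01 for loci without the note. The largest differences upward were at AL6G41370, AL6G41380 and AL6G48920, and the largest downward at the *TERESTRA* locus AL1G54920 and the *ONSEN* loci AL2G12190 and AL8G27760, whose reads are given above. AL1G54920 was at least 410-fold lower after recovery than after HS (limit of 3 reads over the recovery group).

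Of the 5 TE-noted loci with the highest mean level, 2 have an orthologue and 3 are among the 14 loci described above. AL7G32090, linked to PSBQA, a subunit of the oxygen-evolving complex, had 1940 ± 88.6 CPM after HS, 2420 ± 61.7 CPM after recovery and 2510 ± 119 CPM in control (log2 fold change of HS to control -0.37 ± 0.09 SE, edgeR adjusted p = 0.00161). AL7G43320, linked to the plastid glutamine synthetase GS2, had 1210 ± 171 CPM after HS, 1800 ± 34.7 CPM after recovery and 1590 ± 33.4 CPM in control (-0.40 ± 0.10 SE, edgeR adjusted p = 0.00231). AL9U11700, AL3G52430 and AL3G52450 were the others, and all 3 were highest in recovery replicate 2.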

How the data were processed

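Per the labels and the study's methods, the authors built libraries without strand information from leaf RNA, cleaned the reads with FASTX tools, aligned them to assembly v1.0 with tophat2 at default settings, and obtained read numbers per gene with Qualimap from annotation v2. The deposited values used are raw read counts. Start and end positions, exons, orthologue links and the TE note are from the deposited annotation, and all 32793 loci were joined. The 6 columns of normalized values were not used. The members and all lists were chosen with earlier results of these data known.

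The test was run with edgeR 4.0.16 in R 4.3.3: filterByExpr (minimum count 10, minimum total 15), TMM, a quasi-likelihood fit over the 6 *A. lyrata* libraries (3 residual degrees of freedom) and Benjamini-Hochberg adjustment over all loci tested. The same code was tested on simulated data. A standard error (SE) is the log2 fold change divided by the square root of F. Alternatives were other scalings and filters, DESeq2 1.42.0, each library left out, and a replicate block. Detection at common depth was computed with the hypergeometric distribution. LTR sequences and the families and positions of responsive TEs are from supplementary tables of the study.

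Named loci were, among those past the threshold with a mean of at least 1 CPM and no overlap between groups, the 10 largest increases and 6 largest decreases after HS and after recovery, and the 3 largest each way between recovery and HS. The 5 most abundant loci, the 5 with the most reads in control replicate 2 alone, and those at *COPIA78*, *COPIA37* or *TERESTRA* were added. Other loci were named after their values had been seen. Of the 10 largest recovery increases, 5 lie in the row on scaffold 3.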

Additional observations from a re-analysis of the deposited data

How the results depend on the processing

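After HS, the counts of TE-noted loci called kept within 1.5 times of 580 and 684 under every alternative. After recovery they did not: against 98 higher and 108 lower, DESeq2 called 33 and 23, the fit without a filter on low counts called 165 lower, and leaving out 1 library at a time gave 37 to 119 higher and 34 to 129 lower. The balance and the shares after HS did move. Library totals gave 449 higher and 806 lower, beside 5937 and 8811 of loci without the note. DESeq2 called 424 higher and 562 lower of 3752 TE-noted loci, beside 6038 and 5820 of 25640 loci without the note. The median log2 fold change after HS was -0.11, against -0.35 when scaled to library totals. It was -1.31 with DESeq2 and -1.3 without a filter, where 3752 loci entered in place of 1699. These included the 1015 with reads in control replicate 2 alone, and neither fit was run without that library. For loci without the note the medians in these fits were -0.24, -0.19 and -0.21. With 1 library left out, the median of TE-noted loci was -0.25 to -0.05. After recovery it was -0.06, against -0.09, -0.45 and -0.44 with library totals, DESeq2 and no filter. Loci without the note had -0.03, -0.05 and -0.03 there. Leaving out 1 library gave -0.1 to -0.01 for TE-noted loci after recovery. With the replicate block, 577 were higher and 687 lower after HS, 118 were higher and 123 lower after recovery, while 678 and 605 were so in recovery against HS. Deviations of same-numbered libraries correlated at 0.00757 for HS and control, -0.00125 for recovery and control, and 0.114 for recovery and HS. Whether the replicate numbers pair the libraries cannot be told from these values.

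TE-noted loci with at least 1 read in a single library numbered 9 and 23 in the HS libraries, 6 and 12 after recovery, and 2 and 1015 in the control libraries, and in control replicate 2 there were 40 with at least 10 reads and 86 at common depth, against 171 with at least 5. Without the 10 loci with the most reads, the share of reads on TE-noted loci was 3.63 and 3.67% in HS libraries, 4.21 and 4.9% in recovery libraries, against 4.09 and 4.13% in control. Without the 14 loci, an alternative added after seeing the data, it was 3.67 and 3.68% in HS libraries, 4.51 and 4.45% in recovery libraries, against 4.41 and 4.46% in control.

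Of the values of named loci under the alternatives, 1243 stayed on their side of the threshold with no called value changing sign, 111 were no longer called, 44 became called, and 17 that were called in at least 1 of the fits compared changed sign. All 17 did so without recovery replicate 2. With 1 library left out at a time, the log2 difference of recovery to HS ran -1.19 to 1.58 at AL3G52370, -1.05 to 1.71 at AL3G52380, -1.47 to 1.47 at AL3G52390, -1.23 to 1.57 at AL3G52400, -1.16 to 1.6 at AL3G52410, -0.94 to 1.89 at AL3G52420, -1.08 to 1.7 at AL3G52430, -1.19 to 1.57 at AL3G52440, -0.99 to 1.76 at AL3G52450, -1.2 to 1.56 at AL3G52460, -1.28 to 1.48 at AL3G52470, -1.23 to 1.55 at AL3G52480, -0.51 to 1.58 at AL7G51000, -1.06 to 1.6 at AL9U11700 and -0.9 to 1.72 at AL9U11780, and the log2 fold change of recovery to control ran -0.31 to 2.34 at AL9U11700 and -0.28 to 2.34 at AL9U11780, the lowest values being those without recovery replicate 2. The cause was not tested. Of the 4200 loci, 2501 had too few reads to be tested.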
